A study of Mus musculus with 18 samples.

Results

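The comparison described here is between the medial ganglionic eminence (MGE) of WT and Ezh2 KO mouse embryos at E15.5, in the repressive histone mark H3K27me3. It rests on 6 of the 18 samples of the series, 3 libraries per genotype, chosen by the stage and genotype in their labels. The KO genotype is given as Nkx2.1-CreC/+;Ezh2;Ai9F/+, from Nkx2.1-CreC/C;Ezh2F/+ males and Ai9F/F;Ezh2F/+ females. No allele is given for the embryos labelled WT. The Nkx2.1-Cre acts in cells that express Nkx2-1, a gene of the MGE, and Ai9 marks the cells in which Cre has acted with the red protein Tomato. The tissue was dissected under fluorescence to collect Tomato-positive MGE and to leave out most postmitotic cells that had already left it, and no cell sort is described. MGEs could be pooled within a genotype, so a library may hold more than 1 embryo. The labels number biological replicates without saying which litter each came from. In such bulk libraries, fewer cells with the mark at a site and less of the mark per cell cannot be told apart.

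Ezh2 encodes the main methyltransferase of Polycomb repressive complex 2, which places methyl groups on lysine 27 of histone H3. The trimethylated form marks silent genes, above all the CpG-rich start sites of developmental transcription factors that a cell type does not use. The MGE gives rise to most cortical interneurons that make somatostatin or parvalbumin, under the control of Nkx2-1 and its target Lhx6, while its neighbours, the lateral and caudal ganglionic eminences (LGE and CGE) and the dorsal pallium, use other transcription factors. In CUT&Tag an antibody to the mark brings a transposase to the chromatin, and the DNA it cuts and tags there is sequenced.

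Coordinates are those of GRCm38/mm10. Each library came as a list of intervals enriched for the mark, with the read count of each. A normalised read count below is the count in a region divided by the depth of the library relative to the mean of the 6 libraries. The depth, recovered as the mean count per window of 200 bp, ran from 0.07512 to 0.1499 in the WT and from 0.1786 to 0.3455 in the KO libraries. Every KO library was thus deeper than every WT library, and depth and genotype cannot be told apart. The lists held 5091 to 6662 intervals in WT and 5385 to 9325 in KO, and 570378 to 2353905 autosomal counts. KO replicate 3, the deepest library, had the narrowest intervals, with a median of 1800 bp against 2600 to 4800 bp in the others, and 9.1% of them were a single window, as were 8.9% in WT replicate 1, the shallowest library.

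The 6 lists merged into 11531 autosomal regions, of which 2781 had an interval in every library and were tested. The regions tested held 95.3 to 98.4% of the autosomal counts of each library. They lay in the window of 2846 of 20661 autosomal protein-coding genes, a window being the gene body with 2500 bp on either side. Of the 20661 genes, 14217 had no interval in any of the 6 libraries. Ezh2 itself (chromosome 6, 47530274 to 47595270) was among these, so the lists hold no measure of its deletion. Of 20 MGE regulators listed, 19 had an interval in all 6 libraries. Of 6 microglial markers, 0 had one in all 6 libraries, and of 20 housekeeping genes, 18 of them matched on the autosomes, 0 did. H3K27me3 is a repressive mark, and an interval in bulk tissue does not show in how many of the cells a gene is silent. These markers therefore do not show which cells the tissue held.

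To show what kind of sequence the mark lay on, the 250 bases before the start site are given for 5 genes to which the results return, from the RefSeq promoter table of GRCm38.p6, with every CpG, the letters CG, in capitals. Foxp4 (chr17:47924633-47924882, minus strand), Emx2 (chr19:59458440-59458689, plus strand) and Lingo1 (chr9:56796311-56796560, minus strand) have their start site in a region that was lower in KO. Sp9 (chr2:73271676-73271925, plus strand) has it in a region that was higher in KO, and Pax5 (chr4:44710695-44710944, minus strand) in a region that was not called while another at the same gene rose.
Foxp4: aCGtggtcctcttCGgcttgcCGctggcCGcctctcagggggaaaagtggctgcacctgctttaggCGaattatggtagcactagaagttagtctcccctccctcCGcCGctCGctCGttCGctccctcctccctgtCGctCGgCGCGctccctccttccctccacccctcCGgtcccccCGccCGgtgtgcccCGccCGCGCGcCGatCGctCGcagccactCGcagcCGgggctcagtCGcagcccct
Emx2: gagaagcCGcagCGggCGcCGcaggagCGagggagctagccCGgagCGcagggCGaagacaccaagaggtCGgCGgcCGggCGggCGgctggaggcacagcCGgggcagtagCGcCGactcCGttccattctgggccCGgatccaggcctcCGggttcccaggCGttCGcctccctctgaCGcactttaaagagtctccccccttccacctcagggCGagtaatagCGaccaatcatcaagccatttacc
Lingo1: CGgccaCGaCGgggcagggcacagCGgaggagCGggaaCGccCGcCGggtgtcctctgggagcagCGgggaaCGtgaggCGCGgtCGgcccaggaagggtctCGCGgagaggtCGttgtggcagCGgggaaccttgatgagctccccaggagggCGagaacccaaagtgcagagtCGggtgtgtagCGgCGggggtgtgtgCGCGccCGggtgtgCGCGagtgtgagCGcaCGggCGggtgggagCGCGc
Sp9: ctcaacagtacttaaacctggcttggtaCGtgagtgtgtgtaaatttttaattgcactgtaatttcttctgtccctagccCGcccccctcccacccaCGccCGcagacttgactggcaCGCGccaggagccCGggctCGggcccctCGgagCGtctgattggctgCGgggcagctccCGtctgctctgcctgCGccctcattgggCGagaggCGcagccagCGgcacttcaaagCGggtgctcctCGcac
Pax5: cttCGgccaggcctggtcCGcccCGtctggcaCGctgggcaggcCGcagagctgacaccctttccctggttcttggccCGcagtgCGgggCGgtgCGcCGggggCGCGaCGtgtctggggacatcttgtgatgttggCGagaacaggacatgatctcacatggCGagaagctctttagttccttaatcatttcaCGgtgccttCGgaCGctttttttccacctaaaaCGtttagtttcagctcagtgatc

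The stretches hold 27, 24, 31, 18 and 19 CpGs in the order given. The median over the 16456 autosomal genes with an entry was 11.0, taking the richest start site of a gene, and it was 17.0 over the genes with a start site in a region that had an interval in all 6 libraries. A share of 12.7% of genes had at least as many CpGs as Foxp4, 17.9% as Emx2, 7.9% as Lingo1, 32.8% as Sp9 and 29.7% as Pax5, and 93.3% held at least a single CpG. All 5 stretches thus held more CpGs than the median of the marked genes, those with a lower, a higher and an uncalled region alike.

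Most regions with H3K27me3 in both genotypes did not pass the test. Counts were lower in KO at 48 of 2781 regions (1.73%) and higher at 88 (3.16%) by edgeR at an adjusted p below 0.05, which is what called means here, and the median log2 change over all tested regions was -0.02. Because counts were scaled to the depth of each library, falls and rises are relative. A change in the mark common to all regions may not show in these values, and the median of -0.02 does not measure it. The 48 falls ran from -0.39 to -1.83 on the log2 scale and the 88 rises from 0.40 to 2.17. In 44 of the 48 and in 87 of the 88, the 3 KO libraries lay all on 1 side of the 3 WT libraries, as they did without regard to the test in 8.52% of all tested regions below WT and 13.2% above it. By gene, 32 of 2846 (1.12%) had a region in their window that fell and 52 (1.83%) a region that rose, and 0 had both. Leaving out a library moved the number of regions that fell to 75 without WT replicate 1, 25 without WT replicate 2, 19 without WT replicate 3, 29 without KO replicate 1 and 18 without KO replicate 3, and the number that rose to 52 without WT replicate 2, 48 without KO replicate 1 and 58 without KO replicate 2. The genes that fell were 18, 13, 21 and 11 without WT replicate 2, WT replicate 3, KO replicate 1 and KO replicate 3, and those that rose 27 and 26 without WT replicate 2 and KO replicate 1. With scaling by TMM factors 85 regions fell, with DESeq2 78 fell, and with column sums 134 rose. The genes that fell included Foxp4, Lingo1, Meis1, Meis2, Ebf1, Gli2 and Emx2, and those that rose included Lhx6, Sox6, Rbfox1, Nfix, Pax5 and Gabbr2.

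**Figure D1:**
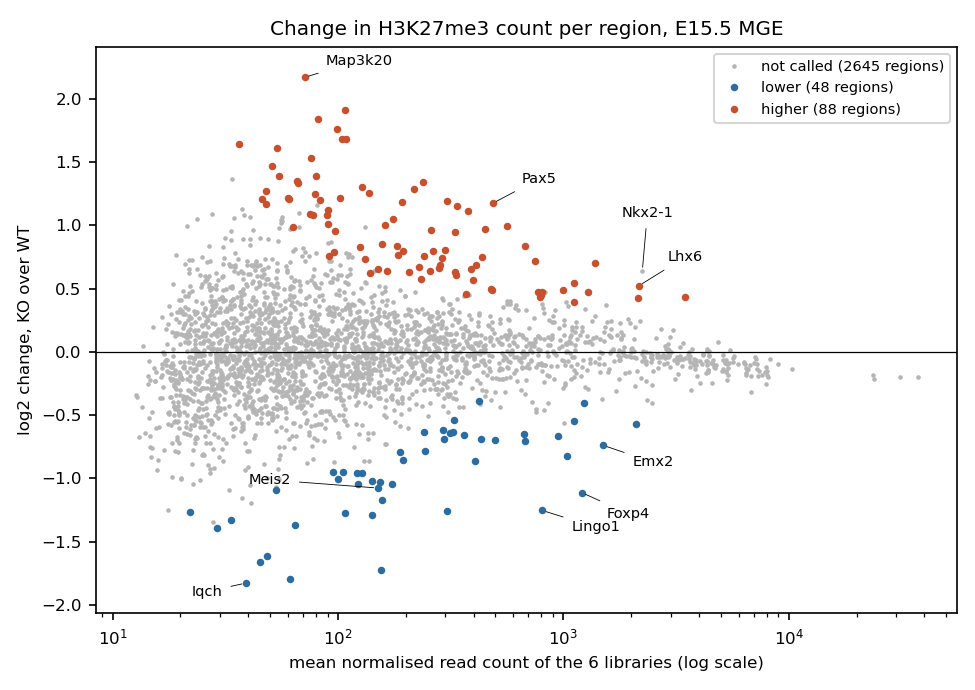
Log2 change of each of the 2781 tested regions (KO over WT) against its mean normalised read count over the 6 libraries, on a log axis; blue and orange points are the 48 regions lower and the 88 higher in KO. Most regions lie near 0, and among those with a high count the regions at Foxp4 and Emx2 lie below it, at -1.11 and -0.74.

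The calls depended on where the lists drew their intervals. A count was recorded only inside an interval, and the covered length of a region, the bases that intervals take up in it, moved with its count. The median ratio of covered length, KO over WT, was 0.89 in the regions that fell, 1.49 in those that rose and 1.13 over all tested regions. Of the 355 regions with a ratio above 1.5, 42 rose and 0 fell, and of the 641 with a ratio from 1/1.5 to 1, 37 fell and 0 rose. When counts were taken per covered kb, 3 regions fell and 0 rose, and 299 had an unadjusted p below 0.05. The 3 were the long intragenic region of Lingo1, the region at the end of Meis2 away from its start site, and a region of Gpr176 (chromosome 2, 118369001 to 118376400), named for this reason alone, whose count did not pass the test (log2 change -0.26, adjusted p = 0.595) and whose covered length was 2.37 times that in WT. The direction per covered kb was that of the count in 47 of the 48 regions that fell and in 74 of the 88 that rose, with a median log2 change of -0.68 and 0.29, against -0.18 over all tested regions. Whether the covered length is part of the change in the mark or follows from depth was not tested.

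**Figure D2:**
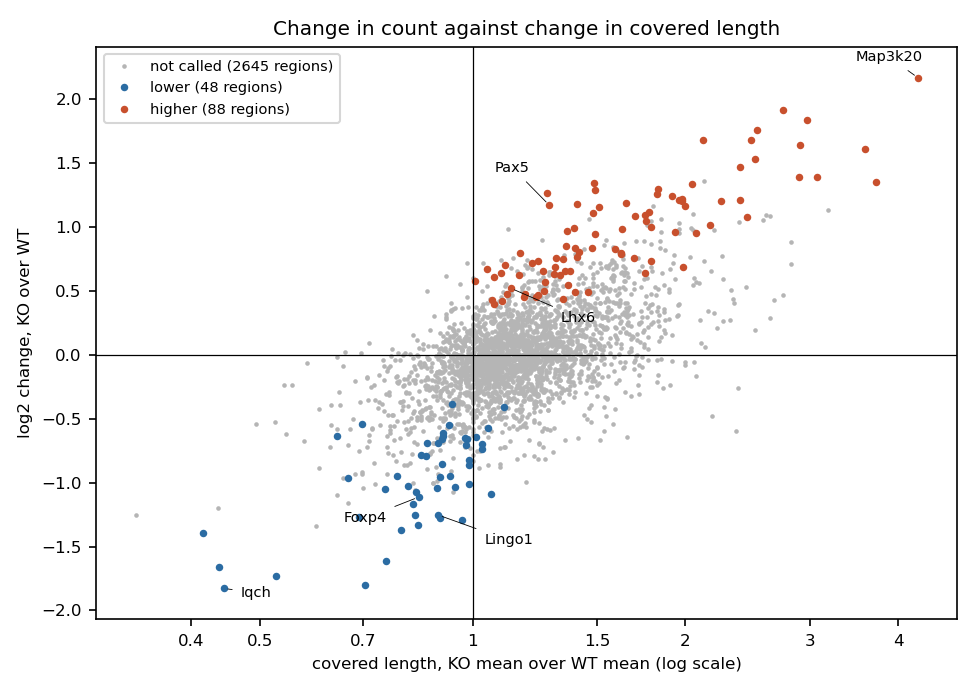
Log2 change in count of each tested region against the ratio of its covered length, mean of the KO libraries over mean of the WT libraries, both on log scales. Regions that rose lie mostly to the right of 1, up to 4.27 at Map3k20, and the region at Foxp4 lies at 0.84.

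Foxp4, which encodes a forkhead repressor expressed in the developing forebrain, carried the firmest fall (chromosome 17, 47895401 to 47936800, over the start site and the first part of the gene). Its normalised counts were 1474, 1741 and 1737 in the WT libraries and 805, 813 and 678 in the KO libraries. Every KO library thus lay far below every WT library, and the log2 change was -1.11 (SE 0.12, edgeR adjusted p = 0.000166). Per covered kb it was -0.88 (adjusted p = 0.0643), and it was called in every fit that left out a library. Among 27 regions of forkhead genes, with a median of -0.05, it was the only one called.

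The falls at Lingo1 spread over the gene. Lingo1 encodes a membrane protein of neurons that restrains axon growth and myelination. The long region inside it (chromosome 9, 56721201 to 56779800) had 954, 1120 and 1321 normalised counts in WT and 569, 574 and 296 in KO. All KO libraries were below all WT libraries, with replicate 3 the lowest, at a log2 change of -1.25 (SE 0.20, adjusted p = 0.00209 by edgeR), and -1.10 per covered kb (adjusted p = 0.0205). The regions over its start sites also fell, by 0.66 at chromosome 9, 56780601 to 56805000, on the log2 scale (adjusted p = 0.0103), and by 0.86 at 56613801 to 56644600 (adjusted p = 0.0213).

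Regulators of the neighbouring eminences made up the list with most falls. Of 26 tested regions at LGE and CGE regulators, 5 fell and 1 rose (over all tested regions 1.73% and 3.16%), and the median log2 change was -0.28 against -0.02 over all tested regions. In 10 of the 26 all KO libraries lay below all WT libraries, and in 2 above (over all tested regions 8.52% and 13.2%). The 5 regions were at 3 genes, Meis2, Ebf1 and Meis1, with the pair at Ebf1 400 bp apart, and regions of the same gene are not independent. This list, like the others, was chosen with earlier results of these data known. Its share of falls is therefore a description and no independent test. Meis2 and Meis1 encode TALE homeodomain proteins, of which Meis2 marks LGE progenitors and striatal neurons, and Ebf1 encodes a factor of differentiating striatal projection neurons. The count of 5 was 2 without WT replicate 3, KO replicate 1 or KO replicate 3, 3 with intervals up to 1000 bp apart merged, 1 per covered kb, 1 when regions with an interval in most libraries were tested, and 8 with column sums or DESeq2.

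At Meis2 the region at the end of the gene (chromosome 2, 115850601 to 115862200) lay mostly beyond that end, at 115861264. It had 151, 175 and 276 normalised counts in WT and 87.8, 94.7 and 68.6 in KO. The groups did not overlap, and the log2 change was -1.29 (SE 0.23, edgeR adjusted p = 0.0039). Per covered kb it was -1.18 (adjusted p = 0.0205). Over the start site (chromosome 2, 116056201 to 116078400) the counts were 153, 152 and 302 in WT and 109, 111 and 75.5 in KO. WT replicate 3 was far above the other WT libraries there, and the log2 change of -1.08 (SE 0.25, adjusted p = 0.0234) was -0.65 without that library (adjusted p = 0.121). The call was also lost without any of KO replicates 1, 2 and 3, and per covered kb (log2 change -0.74, adjusted p = 0.198).

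Ebf1 carried the mark most heavily over its start sites (chromosome 11, 44608601 to 44633800), where counts of 2236, 2298 and 2296 in WT and 1955, 2058 and 1667 in KO did not pass the test (log2 change -0.27, SE 0.11, adjusted p = 0.242). The groups did not overlap there. Behind it, the region at 44657001 to 44699600 had 726, 857 and 916 in WT and 599, 543 and 404 in KO. All KO libraries were lower, by 0.70 on the log2 scale (SE 0.14, edgeR adjusted p = 0.0103). That call was lost per covered kb (log2 change -0.66, adjusted p = 0.177), with merged intervals, and when regions with an interval in most libraries were tested. The region between them, at 44634201 to 44656600, fell by 0.64 (adjusted p = 0.0324), a call that was lost without WT replicate 2, WT replicate 3 or any KO replicate. At Meis1 (chromosome 11, 19004601 to 19023200, over its start site) counts were 211, 200 and 303 in WT and 146, 161 and 112 in KO. The groups did not overlap, and the log2 change was -0.79 (SE 0.19, adjusted p = 0.0244), lost without WT replicate 3, KO replicate 1 or KO replicate 3.

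The same list held a rise at Sp9, which encodes a zinc finger factor of LGE, CGE and MGE neurons. Its region (chromosome 2, 73261401 to 73282400) had 680, 643 and 695 normalised counts in WT and 844, 1009 and 865 in KO. All KO libraries were higher, by 0.43 on the log2 scale (SE 0.11, edgeR adjusted p = 0.0384), but leaving out any of the 6 libraries put the adjusted p above the threshold, from 0.0607 to 0.234. Isl1, a LIM-homeodomain factor of striatal and cholinergic neurons, had 2270, 2346 and 2517 in WT and 2060, 2282 and 1847 in KO. These overlapped, with a log2 change of -0.21 (adjusted p = 0.394). Of 11 tested regions at striatal neuron markers, with a median log2 change of -0.27, 2 fell, both at Ebf1 (over all tested regions 1.73%). The striatal transcription factor Foxp1 did not pass the test (log2 change -1.16, SE 0.42, edgeR adjusted p = 0.161, and 0.0198 without WT replicate 1).

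In the dorsal pallium list the median log2 change was -0.07. Of its 20 regions 1 fell and 0 rose (over all tested regions 1.73% and 3.16%). The fall was that of Emx2, a homeodomain factor that patterns the cortex (chromosome 19, 59447401 to 59474400, over the whole gene). Its counts were 1505, 1870 and 2251 in WT and 1167, 1124 and 1090 in KO. The KO libraries were close together and all below WT, at a log2 change of -0.74 (SE 0.13, adjusted p = 0.00452 by edgeR), which was called without each of the 6 libraries in turn. Per covered kb the change at Emx2 was -0.77 and not called (adjusted p = 0.104). Pax6, the regulator of cortical progenitors, had among the highest counts of the list, 8749, 8576 and 8646 in WT and 7300, 8069 and 6386 in KO. They did not overlap, yet the log2 change of -0.26 did not pass the test (SE 0.11, adjusted p = 0.282; 0.0255 without KO replicate 2 and 0.013 with column sums). Fezf1 (log2 change -0.40, adjusted p = 0.097) did not pass either, except without KO replicate 2 (adjusted p = 0.0167) and with scaling by TMM factors (adjusted p = 0.0194), column sums or DESeq2.

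In the Sonic hedgehog pathway, which patterns the ventral forebrain, 2 of 14 regions fell and 0 rose (over all tested regions 1.73% and 3.16%). The median log2 change of the 14 was -0.18. Gli2 encodes a transcription factor at the end of the pathway and Boc a co-receptor for the ligand. Within Gli2 (chromosome 1, 118967201 to 118993000, away from its start site) counts were 223, 334 and 356 in WT and 203, 208 and 134 in KO. WT replicate 1 lay close to the KO libraries though the groups did not overlap, and the log2 change was -0.78 (SE 0.19, edgeR adjusted p = 0.0283). It was lost without WT replicate 2, WT replicate 3 or any KO replicate. Over the start site of Gli2 (119039201 to 119060000) the log2 change was -0.48 (adjusted p = 0.0718, and 0.0115 with TMM factors). At Boc the groups overlapped, with 109, 195 and 172 in WT and 114, 82.8 and 56.5 in KO (log2 change -0.95, SE 0.26, adjusted p = 0.0496), and the call was lost without WT replicate 2, WT replicate 3, KO replicate 2 or KO replicate 3. Shh, the ligand, had 1000, 972 and 1065 in WT and 984, 1396 and 1109 in KO, a log2 change of 0.20 (SE 0.13, adjusted p = 0.496), and these overlapped.

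**Figure D3:**
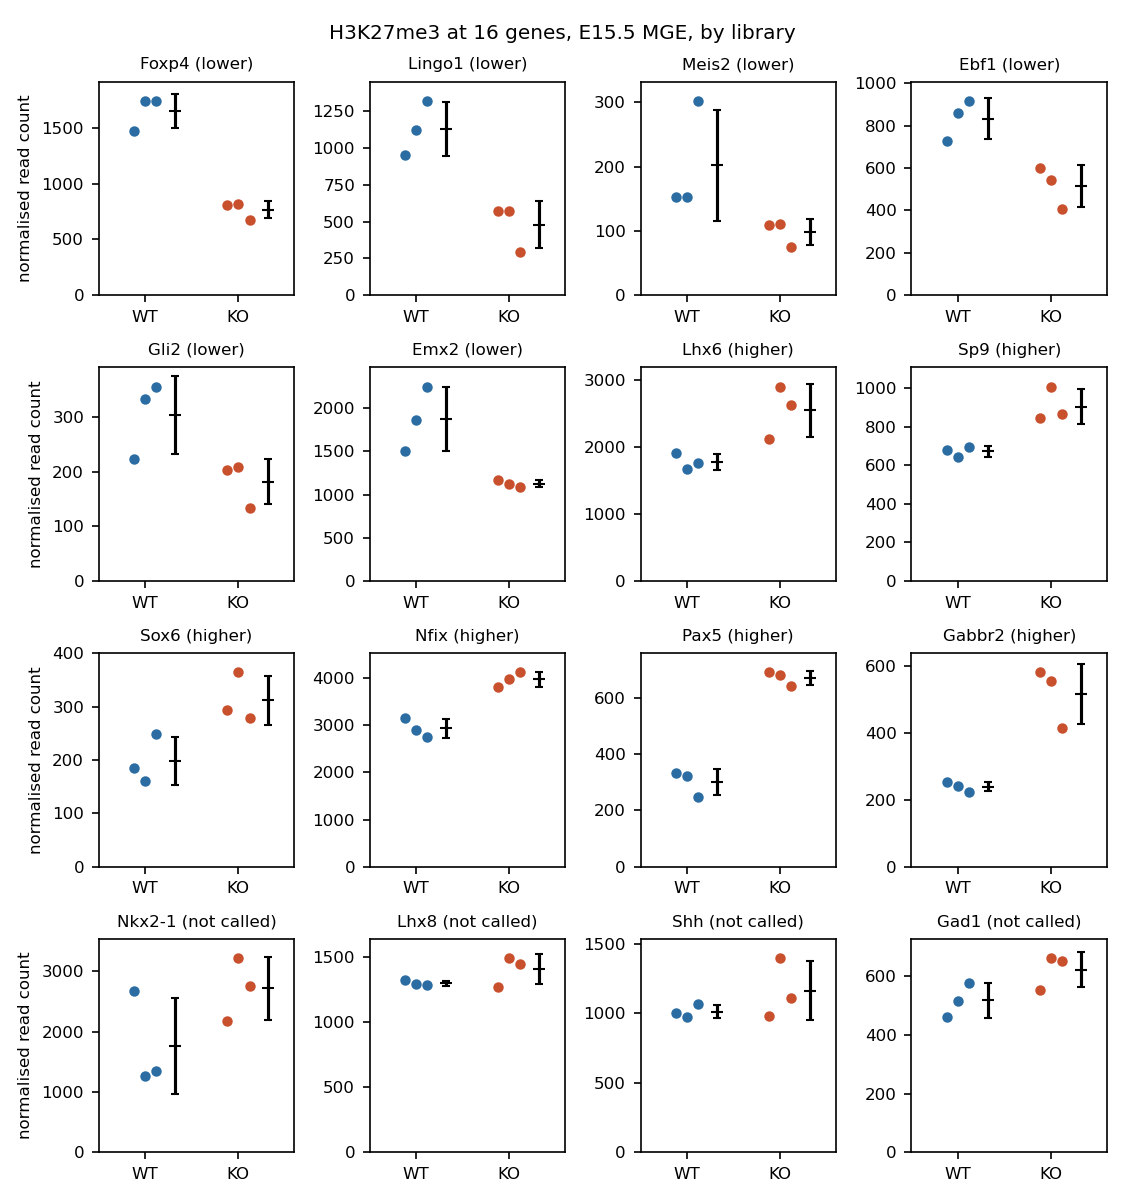
Normalised read count of each library at 16 genes, WT replicates 1 to 3 in blue and KO replicates 1 to 3 in orange from left to right, with mean and SD in black (n = 3). Each panel starts at 0, shows 1 region of the gene, and gives its call. The panels of Lingo1, Ebf1, Gli2, Pax5 and Gabbr2 show a called region away from the start site. Their start-site regions are given in the text, and those of Ebf1, Gli2, Pax5 and Gabbr2 were not called. The KO points lie below all WT points in the panels from Foxp4 to Emx2 and above them from Lhx6 to Gabbr2, and they overlap from Nkx2-1 to Gad1.

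Of 18 tested regions at MGE regulators 1 fell, at Nkx6-2, and 1 rose, at Lhx6 (over all tested regions 1.73% and 3.16%). The median log2 change of the 18 was 0.14, and 6 had an unadjusted p below 0.05 by edgeR (450 of 2781 over all tested regions). With TMM factors or DESeq2 3 fell and 1 rose. Lhx6, the LIM-homeodomain factor of postmitotic MGE neurons (chromosome 2, 36084801 to 36113000, over its start sites), had 1903, 1667 and 1760 normalised counts in WT and 2124, 2901 and 2620 in KO. All KO libraries were above WT, KO replicate 1 the least, by 0.52 on the log2 scale (SE 0.12, edgeR adjusted p = 0.0244), the only call among 14 regions of LIM-homeodomain genes (median -0.07). The call was lost without WT replicate 2, WT replicate 3 or KO replicate 3, with adjusted p up to 0.144, and per covered kb (log2 change 0.31, adjusted p = 0.57). Nkx6-2, a homeodomain factor of ventral progenitors (chromosome 7, 139574601 to 139592800), had 1343, 1371 and 1506 in WT and 995, 1180 and 1008 in KO. The groups did not overlap, at a log2 change of -0.41 (SE 0.11, adjusted p = 0.0496) that kept its call without KO replicate 2 but not without any other library.

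Nkx2-1 itself (chromosome 12, 56501401 to 56544600) had 2678, 1266 and 1343 in WT and 2185, 3218 and 2749 in KO. WT replicate 1 was above KO replicate 1, and the log2 change of 0.64 (SE 0.23, edgeR adjusted p = 0.148) did not pass the test. Without WT replicate 1 it was 1.06 (adjusted p = 0.000947), and with the replicate number as a block 0.70 (adjusted p = 0.0169). The neighbouring region at chromosome 12, 56444601 to 56487800, 44.1 kb from the gene and outside its window, was called higher, with 607, 309 and 240 in WT and 535, 856 and 834 in KO, which overlapped (log2 change 1.00, SE 0.26, adjusted p = 0.0347). It was named after its values were seen, and was called in 2 of the 6 fits that left out a library. Lhx8, a LIM factor of MGE cholinergic neurons, stayed close, at 1318, 1289 and 1284 in WT and 1271, 1488 and 1445 in KO (log2 change 0.11, SE 0.11, adjusted p = 0.681).

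Among the transcription factors of interneurons, 4 of 15 tested regions rose, at Lhx6, Sox6 and Rbfox1, and 0 fell (over all tested regions 3.16% and 1.73%), with a median log2 change of 0.08 and 6 at an unadjusted p below 0.05. With TMM factors or DESeq2 4 rose and 1 fell. The 4 rises lay at 3 genes, and this list too was chosen with earlier results of these data known. Rbfox1 is an RNA-binding splicing regulator placed in this list, and Sox6 is needed for MGE interneurons to mature. Sox6 (chromosome 7, 116029401 to 116041600, over a pair of its start sites) had 185, 161 and 249 in WT and 294, 364 and 278 in KO. All KO libraries were higher, by 0.64 on the log2 scale (SE 0.17, edgeR adjusted p = 0.0365). It was the only call among 9 regions of Sox genes (median 0.12), and was lost without WT replicate 1, WT replicate 2, KO replicate 1 or KO replicate 2. Per covered kb the change at Sox6 was 0.52 (adjusted p = 0.377).

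Within Rbfox1 (chromosome 16, 6946601 to 6983800) counts were 255, 161 and 150 in WT and 437, 442 and 376 in KO. They were well apart, at a log2 change of 1.19 (SE 0.17, adjusted p = 0.000773 by edgeR), with a covered length 1.65 times that in WT and a change of 0.44 per covered kb (adjusted p = 0.522). A second region of the gene (7034801 to 7054200) rose by 0.83 (adjusted p = 0.0284), which was lost without WT replicate 1, WT replicate 2, KO replicate 1 or KO replicate 2. The region over its first start site (5882801 to 5889000) had 41.3 to 65.7 in WT and 38 to 63.3 in KO, which overlapped (log2 change -0.23, adjusted p = 0.78). The count of 4 regions was 2 without WT replicate 1, KO replicate 1 or KO replicate 2, 1 without WT replicate 2, 2 among regions of like covered length, 1 when regions with an interval in most libraries were tested, and 0 per covered kb.

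No tested region at genes of the products that these neurons make was called. Over all tested regions 1.73% fell and 3.16% rose, so 0 calls in lists this short is near that share. An unadjusted p below 0.05 by edgeR was found in 450 of 2781 tested regions. Of 11 tested regions at neuropeptide genes 0 were called by edgeR or DESeq2, with 5 at an unadjusted p below 0.05 and a median log2 change of -0.06. Of 6 at genes of GABA synthesis, transport and calcium buffering 0 were called by edgeR or DESeq2, with 2 at an unadjusted p below 0.05 and a median of 0.14. Sst, the somatostatin gene, had 19.4, 32.4 and 32.8 in WT and 30.6, 18.6 and 25.3 in KO, low counts that overlapped (log2 change -0.23, SE 0.33, adjusted p = 0.815). Gad1, which makes GABA from glutamate, had 459, 515 and 575 in WT and 553, 660 and 650 in KO. These overlapped at KO replicate 1, with a log2 change of 0.26 (SE 0.12, adjusted p = 0.303). The vesicular GABA transporter gene Slc32a1 (log2 change 0.35, adjusted p = 0.169), Gad2 (0.29, adjusted p = 0.417) and the peptide hormone gene Pthlh (0.76, adjusted p = 0.148) also missed the threshold.

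Several rises lay away from the start site of genes whose start-site region was not called. Pax5, a paired-box factor of B cells and the midbrain, carried a large domain over its start site (chromosome 4, 44693401 to 44723400) with 3506, 3381 and 3557 normalised counts in WT and 3130, 3662 and 2899 in KO. These overlapped, at a log2 change of -0.11 (SE 0.11, adjusted p = 0.714 by edgeR). At the other end of the gene, which lies at 44524748, and beyond it (44503601 to 44541400) counts were 333, 321 and 246 in WT and 690, 680 and 643 in KO. Each KO library there held more than any WT library, at a log2 change of 1.17 (SE 0.13, adjusted p = 0.000166), with 0.78 per covered kb (adjusted p = 0.177). It was the only call among 15 regions of Pax genes (median -0.07), and Pax2 (log2 change -0.15, adjusted p = 0.588) was close to the median of all regions.

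Gabbr2, a subunit of the GABA-B receptor, likewise had an uncalled start-site region and a rise away from it. Over its start site (chromosome 4, 46984601 to 46999400) counts were 272, 264 and 246 in WT and 298, 265 and 254 in KO, which overlapped (log2 change 0.06, SE 0.12, edgeR adjusted p = 0.869). Inside it (46848401 to 46885400) they were 252, 241 and 224 in WT and 580, 554 and 414 in KO. The groups were far apart, at a log2 change of 1.11 (SE 0.14, adjusted p = 0.000415) and 0.53 per covered kb (adjusted p = 0.354), the only call among 39 regions of neurotransmitter receptors (median 0.00). Ntrk2, the receptor of brain-derived neurotrophic factor, rose inside the gene at chromosome 13, 58951001 to 58975800, from 31.6, 29.6 and 81.5 in WT to 170, 185 and 129 in KO (log2 change 1.69, SE 0.31, adjusted p = 0.00506), without overlap. The covered length of that region was 2.48 times that in WT, and its change per covered kb was 0.36 (adjusted p = 0.674). Over the start site of Ntrk2 (58804201 to 58812600) the log2 change was 0.99 (SE 0.31, adjusted p = 0.0925). Whether a gene's regions differed from each other was not tested.

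Over all calls, 19 of the 88 regions that rose (21.6%) and 15 of the 48 that fell (31.2%) held a start site, against 53.1% of all tested regions. Regions that rose without a start site had a median log2 change of 1.05 and a covered-length ratio of 1.62, against 0.65 and 1.31 in those with one. The called regions were long, with a median of 20.4 kb in those that fell and 22.3 kb in those that rose, against 9.2 kb over all tested regions, and longer regions hold more counts. Of the regions that rose, 54 lay in a gene window and 34 outside all windows, and of those that fell 37 and 11. Over all tested regions 86.3% lay in a gene window. With the tested regions split into 4 equal parts by normalised counts per covered kb in WT, 34 of the 88 rises lay in the lowest part and 6 in the highest, and of the 48 falls 6 and 10. The WT counts that set these parts also enter the log2 change, so the split is not independent of the calls.

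The 12 largest rises in gene windows whose groups did not overlap, that of Ntrk2 among them, held no start site, and their mean WT count ran from 25.7 at Map3k20 to 136 at Agbl4 and Bend5, against a median of 84.8 over all tested regions. The WT count also enters the change by which these regions were picked. Map3k20, a stress-activated kinase gene (chromosome 2, 72417601 to 72439200), went from 21.8, 38.1 and 17 in WT to 122, 119 and 109 in KO. The groups were widely separate, at a log2 change of 2.17 (SE 0.29, adjusted p = 0.000541 by edgeR), but the covered length was 4.27 times that in WT and the change per covered kb was 0.18 (adjusted p = 0.839). Prkch (a protein kinase C gene, log2 change 1.91), Ptpro and Ptprg (receptor tyrosine phosphatases, 1.84 and 1.30), Dab1 (the adaptor of reelin signalling, 1.76), the region shared by Agbl4 and Bend5 (1.34), Kiz (1.29) and Nhsl1 (1.26) also rose, with adjusted p from 0.000341 to 0.00777, and each was called without any single library. Their covered length was 1.48 to 2.98 times that in WT. Per covered kb none of them was called, with log2 changes from 0.30 to 0.81 (edgeR adjusted p from 0.177 to 0.691). Sesn3 (1.39), Agap1 (1.39) and Wipf3 (1.21) rose too, but the call was lost for Sesn3 without any library other than WT replicate 1, for Agap1 without any other than WT replicate 3, and for Wipf3 without WT replicate 3, KO replicate 1 or KO replicate 2. At Sesn3, Agap1 and Wipf3 the covered length was 2.90, 3.07 and 1.96 times that in WT, and the changes per covered kb were -0.15, -0.23 and 0.29. Wnt5a, a secreted ligand of the non-canonical pathway, was the only call among 30 regions of Wnt genes (median 0.10), with 158, 148 and 123 in WT and 250, 272 and 219 in KO (log2 change 0.80, SE 0.16, adjusted p = 0.00802). Its groups did not overlap, and its covered length was 1.62 times that in WT, with 0.10 per covered kb. In the Wnt list 1 region fell and 2 rose with TMM factors, and 1 fell and 1 rose by DESeq2.

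Nfix is a nuclear factor I gene of glial and late progenitor differentiation. It gave both calls, rises, among 10 tested regions of oligodendrocyte lineage and glial genes (median 0.19, with 3.16% rising over all tested regions). Over its start sites (chromosome 8, 84762801 to 84817400) counts were 3161, 2895 and 2762 in WT and 3811, 3992 and 4125 in KO. They did not overlap, at a log2 change of 0.44 (SE 0.11, adjusted p = 0.0262 by edgeR), but per covered kb the change was -0.02, and the call was held by only 1 of 6 fits that left out a library. Inside the gene (84728401 to 84754800) counts were 148, 169 and 167 in WT and 267, 243 and 246 in KO, a log2 change of 0.63 (SE 0.14, adjusted p = 0.0142), lost without WT replicate 2 or KO replicate 1. Those groups did not overlap either.

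The other regions among the 12 largest falls that lay in gene windows and whose groups did not overlap were at 8 genes, 3 of which encode neuronal surface proteins. Tenm4, a teneurin adhesion gene (chromosome 7, 96569201 to 96580800), had 58.3, 62 and 82.7 in WT and 35.7, 20.3 and 11.6 in KO. The groups did not overlap, with a log2 change of -1.66 (SE 0.37, adjusted p = 0.0156 by edgeR) that was lost without WT replicate 3, KO replicate 2 or KO replicate 3. Adgrl3, a latrophilin receptor gene, fell by 1.39 on the log2 scale (adjusted p = 0.034), and Ntm, which encodes the adhesion protein neurotrimin, by 1.37 (adjusted p = 0.0156). Iqch (-1.83), the adenylate kinase gene Ak8 (-1.25), the kinesin-like gene Kif26a (-1.09), Vgll4, a cofactor of TEAD proteins (-1.04), and the hyaluronan synthase gene Has3 (-1.01) also fell, with adjusted p from 0.00145 to 0.0486. Of these, Ak8 was called without each library in turn. Adgrl3 was lost without any of 4 libraries (WT 2, WT 3, KO 2, KO 3), Kif26a without 5 (all but WT 1), Vgll4 without 4 (WT 2, WT 3, KO 2, KO 3), Has3 without 3 (WT 3, KO 1, KO 2), Ntm without KO 3 and Iqch without WT 2. The covered length was 0.44 times that in WT at Tenm4 and Iqch and 0.42 times at Adgrl3. Per covered kb the log2 changes there were -0.41, -0.54 and -0.11. At Ntm, Ak8, Kif26a, Vgll4 and Has3 the covered length was 0.79, 0.83, 1.06, 0.89 and 0.99 times that in WT. The changes per covered kb were -1.04, -0.91, -1.14, -0.84 and -0.98, and none of the regions at these 8 genes was called on that measure.

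Called regions lay in runs. Of 21 pairs of called regions next to each other within 200 kb, 21 had the same direction, among them the pairs at Ebf1, Meis2, Lingo1 and Iqch, which fell, and at Rbfox1, Ntrk2, Nfix and Agap1, which rose. Neighbouring regions of a domain share their reads' source and are not independent.

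Several lists held no called region, the Hox genes among them. Over all tested regions 1.73% fell and 3.16% rose, so for these lists and those that follow 0 calls is near that share. An unadjusted p below 0.05 by edgeR was found in 450 of 2781 tested regions. The 5 regions that hold all 39 Hox genes had log2 changes from -0.22 to -0.14. The region of 9 Hoxb genes, Hoxb5 among them (chromosome 11, 96242001 to 96384200), had 27265, 25553 and 24305 in WT and 23612, 24170 and 18577 in KO. The groups did not overlap, at a log2 change of -0.22 (SE 0.13, adjusted p = 0.435 by edgeR). The median of the 5 was -0.20, 0 were called by edgeR or DESeq2, and 0 had an unadjusted p below 0.05. Of 39 regions of midbrain, hindbrain and spinal cord regulators 0 were called by edgeR or DESeq2, with 1 at an unadjusted p below 0.05 and a median of -0.05, and log2 changes ran from -0.20 to 0.34. Of 49 regions of mesoderm and endoderm regulators (median -0.04) 0 were called by edgeR or DESeq2, with 2 at an unadjusted p below 0.05 and 1 called higher with TMM factors. Of 11 regions of Irx genes and of Six3 and its relatives (median -0.08) 0 were called by edgeR, with 1 at an unadjusted p below 0.05. This was that of Six3, a factor of the rostral forebrain (log2 change -0.38, SE 0.12, adjusted p = 0.114), which passed with TMM factors (adjusted p = 0.0294), column sums, DESeq2 or without KO replicate 2. Of 7 regions of Polycomb genes (median -0.18) 0 were called by edgeR or DESeq2, with 1 at an unadjusted p below 0.05, and all 7 changes were below 0, from -0.54 to -0.05.

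**Figure D4:**
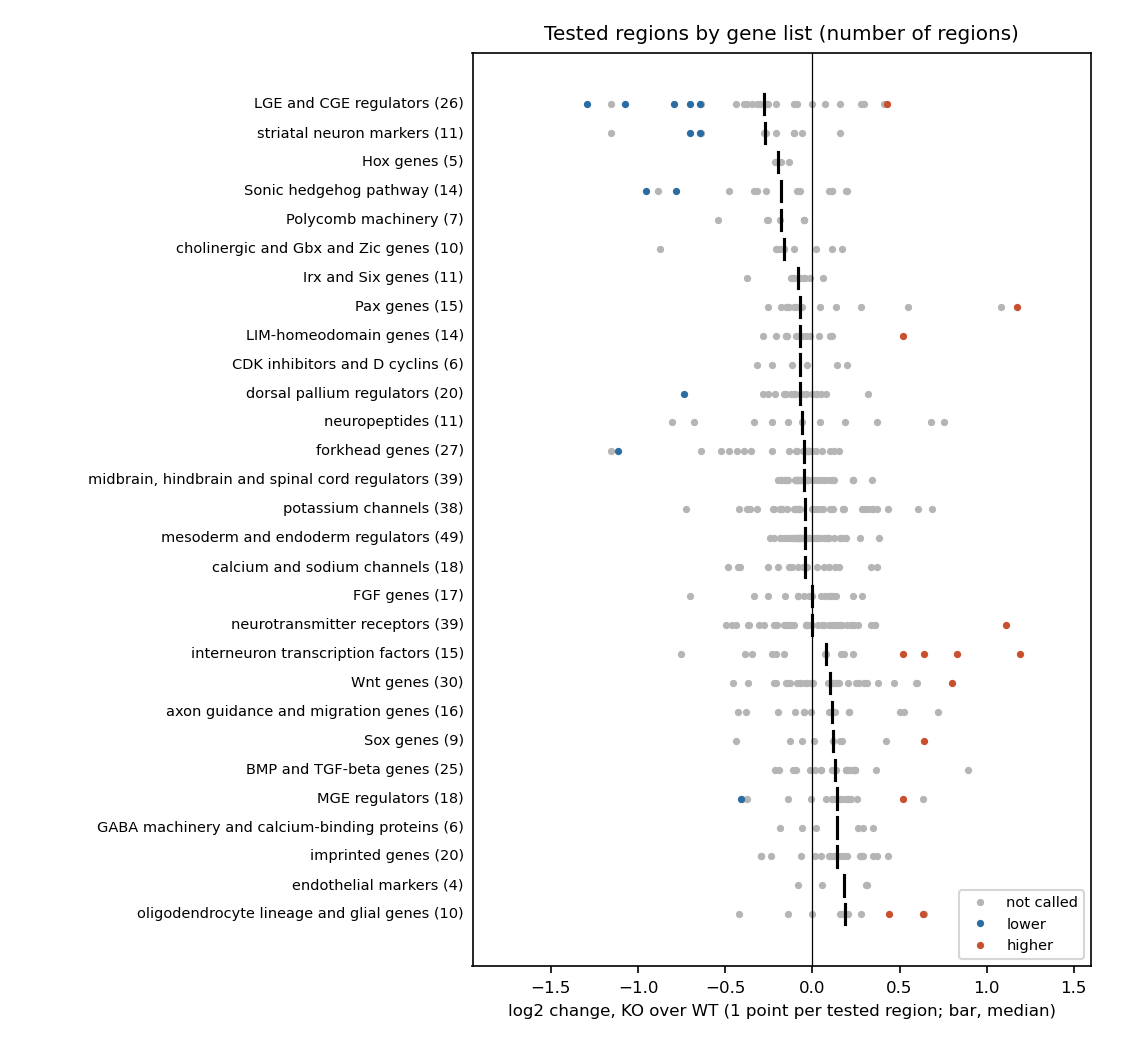
Log2 change, KO over WT, of the tested regions in the window of each list's genes, 1 point per region, with the list's median as a black bar and the number of regions in brackets. The LGE and CGE regulators have the lowest median, -0.28, and the Hox genes lie within a narrow range below 0.

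Of 16 regions of axon guidance and migration genes (median 0.11) 0 were called by edgeR or DESeq2, with 2 at an unadjusted p below 0.05 and 1 called lower with TMM factors. Slit2, a repellent ligand of migrating neurons, had 72.8, 80.4 and 58.4 in WT and 113, 107 and 125 in KO, which did not overlap (log2 change 0.72, SE 0.21, edgeR adjusted p = 0.0721). Of 20 regions of imprinted genes (median 0.14) 0 were called by edgeR or DESeq2, with 4 at an unadjusted p below 0.05. Kcnq1, which hosts an imprinted antisense transcript, had 1486, 1362 and 1208 in WT and 1702, 1894 and 1648 in KO. Its groups did not overlap, at a log2 change of 0.37 (SE 0.11, adjusted p = 0.0829). Of 38 regions of potassium channels (median -0.04) and 18 of calcium and sodium channels (median -0.04) 0 were called by edgeR or DESeq2, with 4 and 1 at an unadjusted p below 0.05, and 1 of the latter list was called lower with TMM factors. Of 25 regions of BMP and TGF-beta genes (median 0.13), 17 of FGF genes (median near 0), 6 of cell-cycle inhibitors and D cyclins (-0.07) and 4 of endothelial markers (0.18) 0 were called by edgeR or DESeq2, with 2, 1, 1 and 0 at an unadjusted p below 0.05. Of 10 regions of cholinergic, Gbx and Zic genes (-0.16) 0 were called by edgeR and 1, lower, by DESeq2, with 1 at an unadjusted p below 0.05.

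Genes that had an interval in only 1 genotype were few. Of 6444 genes with an interval in any library, 81 (1.26%) had one in all 3 KO and in no WT library, and 3 (0.0466%) in all 3 WT and in no KO library. Of the genes on the lists, the first group held Npy2r, a receptor of neuropeptide Y, with 14, 16 and 12 counts in the KO libraries, and Spry1, an inhibitor of FGF signalling, with 21, 17 and 12. Both had no interval in WT. The second group was Chrna1, the muscle acetylcholine receptor subunit, with 6, 8 and 11 counts in WT, and Ctnna2 and Lrrtm1, which share a region with 9, 11 and 15. These counts are small and, unlike the normalised counts above, were not scaled to depth. Every WT library was shallower than every KO library, so they cannot be compared between the genotypes. A gene without an interval may still hold reads that no list recorded. With the lists cut to the same number of intervals, 44 genes were in KO only and 9 in WT only. The first number was 194 without WT replicate 3 and 193 without KO replicate 2. The second was 33, 17 and 10 without WT replicates 1, 2 and 3, and 12 and 10 without KO replicates 1 and 3.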

How the data were processed

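H3K27me3 CUT&Tag was compared between 3 WT and 3 KO libraries of E15.5 MGE, grouped by the labels; 6 other libraries, of E12.5, and 6 heterozygous samples were not used. The interval counts and scores are those the authors deposited, 1 list per library; the counts are whole reads per interval. The score was used for the recovered depth and to rank intervals. The submitters' processing notes name cutadapt, Bowtie2, SAMtools, Picard, deepTools and SICER and the builds GRCm38 and mm10; settings and versions are not given in the sources used here. In intervals of 1 window the score was the negative natural log of a Poisson probability at 1 mean per library, here taken as the depth.

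Autosomal intervals of the 6 lists were merged, and regions with an interval in all 6 were tested with edgeR 4.0.16 (quasi-likelihood, Benjamini-Hochberg, threshold 0.05) in R 4.3.3, with library sizes set by depth. The SE is the log2 change over the square root of F. DESeq2 1.42.0 was an alternative. Genes, 20661, and start sites came from RefSeq tables of GRCm38.p6, matched by symbol. The test was run on simulated counts whose means followed the library depths. They held no effect of covered length, so they bear on neither depth nor the drawing of intervals. Where the labels do not name embryos or litters, p-values measure only the spread between these libraries.

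Genes were named as the 12 largest falls and 12 largest rises whose groups did not overlap, 8 genes always, every gene of 31 lists with a called region, and examples from the lists with the largest changes. The members and lists were chosen with earlier results of these data known.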

Additional observations from a re-analysis of the deposited data

Results flagged for a closer look

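Chromosome X was left out of the comparison. It held 0.95%, 0.874% and 1.076% of the covered bases in WT replicates 1 to 3, and 5.33%, 0.885% and 3.24% in KO replicates 1 to 3. KO replicates 1 and 3 thus lay above every WT library and KO replicate 2 did not.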

How the results depend on the processing

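With the same 2781 regions, 85 fell with TMM factors (62 genes) and 78 with DESeq2 (54 genes), and 134 rose with column sums (97 genes). Per covered kb 3 regions fell (3 genes) and 0 rose (0 genes), 39 of 41 named regions lost their call, and the sign turned at Sesn3 (-0.15), Agap1 (-0.23), Lhx8 (-0.06), Sst (0.02), Nfix over its start sites (-0.02) and Gad2 (-0.03). Among regions of like covered length, within 1.5 times between genotypes, 39 rose (25 genes). Testing regions with an interval in most libraries left 10 falls (9 genes) and 47 rises (28 genes), and summing counts per gene left 20 genes with a fall. The causes of these moves were not tested. Lists of equal length left 44 genes in KO only and 9 in WT only.

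Leaving out 1 library gave 18 to 75 falls (11 to 48 genes), 48 to 87 rises (26 to 51 genes), 105 to 194 genes in KO only and 4 to 33 in WT only. Of the 48 falls 14, and of the 88 rises 39, were called in all 6 such fits. For regulators of the LGE and CGE, the 5 falls became 8 with column sums, 8 with DESeq2, 1 per covered kb, 1 with most libraries and 3 with merged intervals, and 2 to 6 without 1 library; the 4 rises of interneuron factors became 0 per covered kb, 2 at like length, 1 with most libraries, and 1 to 3 without 1 library. A replicate block gave 41 falls and 74 rises. Same-numbered libraries did not deviate together (correlations -0.099, -0.015 and -0.078). These values show no pairing by number but cannot exclude one, since the deviations are taken from means of only 3 libraries. A mean count of at least 50 and chromosome X kept changed no count by over 1.5 times. Depth limits small changes in weakly marked regions, and intervals below the authors' threshold are not in the lists.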

Other observations

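Among the tested regions outside all gene windows, a gene of the lists was the nearest gene for 32.4% of the 34 that rose, 27.3% of the 11 that fell and 24.7% of the 336 that were not called. These regions were looked at after their values were seen. A pair rose beside Sp8, a zinc finger gene of LGE and CGE progenitors. The region 119.9 kb from it (chromosome 12, 118711001 to 118726400) had 31.6, 35.3 and 41.4 normalised counts in WT and 89.9, 84.5 and 80.2 in KO (log2 change 1.21, SE 0.25, edgeR adjusted p = 0.0103). The groups were far apart and the call was held by 5 of the 6 fits that left out a library, but the covered length was 2.39 times that in WT and the change per covered kb was -0.02. The region 176.3 kb from Sp8 (118640801 to 118670000) had 155, 180 and 195 in WT and 330, 290 and 289 in KO (log2 change 0.76, adjusted p = 0.00444), again without overlap.

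A run of 3 regions rose on chromosome 8 beside Irx3 and Irx5, homeobox genes used outside the MGE. The region at 91982601 to 92010000, 180.9 kb from Irx3, had 175, 164 and 189 in WT and 366, 335 and 330 in KO. Its groups did not overlap, at a log2 change of 0.96 (SE 0.13, adjusted p = 0.000541 by edgeR) and 0.01 per covered kb. The next, at 92054001 to 92081200, rose by 0.63 on the log2 scale (adjusted p = 0.00453), and the last, at 92112401 to 92172000, by 0.45 (adjusted p = 0.0376), the last a call held by 1 of those 6 fits. A region 207.8 kb from Irx4 (chromosome 13, 73028801 to 73051800) rose from 126, 118 and 111 to 304, 239 and 260, without overlap (log2 change 1.18, SE 0.15, adjusted p = 0.000541; 0.71 per covered kb). Beside Gsx1, an LGE progenitor gene, the region at chromosome 5, 147151001 to 147168000 had 38.8, 43.7 and 29.2 in WT and 97, 107 and 80.2 in KO (log2 change 1.35, SE 0.26, adjusted p = 0.00767), with a covered length 3.73 times that in WT and a change of -0.50 per covered kb, and its groups did not overlap. The region 57.3 kb from Foxb1 (chromosome 9, 69818201 to 69847200) fell, from 185, 219 and 247 to 109, 128 and 59.1 (log2 change -1.17, SE 0.24, adjusted p = 0.0103), without overlap and in each of those 6 fits. No link between these regions and the genes beside them was tested.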
